A study of Homo sapiens with 17 samples.

Results

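The genes described here are those that build the nuclear pore and carry cargo through it: the numbered nucleoporins (NUP), the importins and transportins (KPNA, KPNB, IPO and TNPO), the exportins (XPO, XPOT and CSE1L), the Ran GTPase with its regulators RANGAP1 and RCC1, and the pore components RANBP2, TPR, POM121 and SEH1L. They were chosen by gene symbol alone, with no measured value, and the rule found 51 of the 23368 genes in the count table, of which 24 encode pore proteins and 27 encode transport factors. XPO5 is left out by the rule, and NDC1, which the rule names, appears in the table only under its older symbol TMEM48 and was not counted as a member. KPNA7 and NUP210L had too few reads to be tested in any comparison, so that 49 genes were tested in each.

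The libraries come from HEK293T cells, a transformed human embryonic kidney line, and measure acRIP-seq, in which poly(A) RNA is pulled down with an antibody against N4-acetylcytidine (ac4C), a modified cytidine written by the acetyltransferase NAT10. WT cells gave 3 input libraries, 3 antibody pull-downs (IP) and 2 pull-downs with an isotype control antibody (IgG), and the siTDP43 cells, in which an siRNA lowered the RNA-binding protein TDP43 (gene TARDBP), gave 3 of each. All groups share the cell line, the oligo(dT) selection and the Smart-seq2 library method, and the question is how acetylation of mRNA depends on TDP43. The knockdown was transient, and the labels give no control siRNA for the WT libraries, so transfection, loss of TDP43 and any difference in handling cannot be told apart. The labels do not say whether the numbered libraries of a group are separate cultures, and the methods speak of independent samples for most experiments without naming these libraries, so the p-values measure the spread between libraries, which may be technical.

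As background, the pore is a ring of many copies of a small set of proteins. The Y complex forms its outer rings, the inner ring carries the central channel of FG-repeat proteins, and filaments face the cytoplasm while a basket built on TPR faces the nucleus. Importins release their cargo when they meet Ran bound to GTP in the nucleus, exportins need the same Ran to hold theirs, and the gradient is kept by RCC1 in the nucleus and RANGAP1 in the cytoplasm.

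Short sequences are shown for the genes on which the comparisons turn. The study named UCCCAGCU from the acetylated peaks of WT cells, and used UGUGCG as a UG-rich sequence that TDP43 itself prefers. Both were searched on the sense strand of the exons in the table (hg19), without crossing exon joins, while the motif that the study gave for siTDP43 peaks was not searched here. The 2 genes that were enriched over both controls in siTDP43 cells, NUP153 and RANBP2, each hold 2 UGUGCG matches, which are shown for that reason and stand for the letters TDP43 prefers, not for an acetylation motif. They are given with 10 bases on either side, 5′ to 3′ on the transcript's strand, with the motif in capitals and T for U.

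NUP153, 3′ UTR in the last exon, minus strand, chr6:17615976-17616001: tacaccattaTGTGCGctgataagcg
NUP153, 3′ UTR in the last exon, minus strand, chr6:17615816-17615841: ttgggtgtatTGTGCGctaaactttt
RANBP2, coding sequence, exon 28, plus strand, chr2:109399150-109399175: ttttgatgttTGTGCGgacggtgaac
RANBP2, 3′ UTR, exon 29, plus strand, chr2:109401669-109401694: ggagggatgtTGTGCGagtaatgagt

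The 3 genes enriched over both controls in WT cells (KPNB1, POM121 and TPR) hold no UCCCAGCU in these exons. UGUGCG matches number 1 in POM121 and 0 in KPNB1 and TPR, and 19 members in all hold that sequence. Of the 9 members that hold UCCCAGCU, 4 were higher in the WT IP than in the WT input, and sites of 3 of these are shown for that reason. NUP62 and NUP210 dropped under a fold of 2 there with the GC trend removed (log2 0.90 and 0.60).

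KPNA6, 3′ UTR, exon 14, plus strand, chr1:32639636-32639663: tcccttcagaTCCCAGCTgaccctggtg
NUP62, 3′ UTR, exon 3, minus strand, chr19:50410523-50410550: caggaagcctTCCCAGCTacccgaagct
NUP62, 5′ UTR, exon 2, minus strand, chr19:50431024-50431051: catcaggacaTCCCAGCTggagttcaac
NUP210, 3′ UTR, exon 40, minus strand, chr3:13358038-13358065: agtcctctctTCCCAGCTcctgattctg

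The annotations are those of the canonical GENCODE transcripts. UCCCAGCU was found in 18.4% of the 49 tested members and in 19.7% of all 14751 genes tested in WT cells with exon sequence, and UGUGCG in 38.8% and 30.9%. The shares were not tested against each other, and a match of letters is not a site of acetylation.

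Depth differed between the groups. The input libraries held 24542434 to 36583436 counts, the WT IP libraries 19615316 to 21066215, the WT IgG libraries 9022250 to 9466855, the siTDP43 IP libraries 8610070 to 15736165 and the siTDP43 IgG libraries 3013989 to 3436811, so that values against siTDP43 IgG are the least precise. TARDBP, the targeted gene, was at 149.7 to 157 CPM (read counts scaled to library size) in the WT inputs and at 98.6 to 106 CPM in the siTDP43 inputs, with no overlap, and fell to 67.2% of WT (log2 fold change -0.57 ± 0.05, SE, adjusted p = 6.55e-13). NAT10 was at 51.5 ± 0.806 CPM in the WT inputs and 112 ± 3.998 in the siTDP43 inputs (SD, n = 3 each; log2 1.12 ± 0.05, adjusted p = 5.12e-19). In the inputs LIN28B, NEFM and NEFL, which this line expresses, lay between 27.8 and 192 CPM and PAX2 between 0.0631 and 1.37 CPM, while PTPRC, ALB, HBB and PECAM1, markers of other cell types, were at or near 0 and COL1A1 at 1.21 to 7.74 CPM.

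All CPM values use TMM library sizes set over the 17 libraries together, whereas each fold change uses the sizes of its own fit, so the ratio of 2 CPM values can differ somewhat from the fold printed beside it. Fold changes are on the log2 scale with their SE, and adjusted p-values come from edgeR's quasi-likelihood test with Benjamini-Hochberg adjustment over all genes tested. A call between inputs, or of a change in enrichment, needed an adjusted p under 0.05, and a call of enrichment within WT or siTDP43 cells also a fold change above 2.

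Per kilobase of exon, Ran itself was the most abundant member by a wide margin, at 1641 ± 7.99 CPM per kilobase in the WT inputs (SD, n = 3). KPNA2, an importin alpha, followed at 244 ± 9.11, then RCC1, the nucleotide exchange factor of Ran, at 95.4 ± 1.57, NUP37 at 89.1 ± 1.39 and CSE1L, which returns importin alpha to the cytoplasm, at 74.5 ± 1.07. These neighbours in the order were separated by more than their spread. At the low end, TNPO2 at 2.21 ± 0.0988 and NUP214 at 2.18 ± 0.0958 overlapped within their spread, and XPO4 lay below them at 1.52 ± 0.152. In the siTDP43 inputs the order began with the same 3 genes, at 2424 ± 103, 544 ± 17.2 and 191 ± 9.95 CPM per kilobase, with CSE1L above NUP37.

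In the input RNA, most pore and transport genes were higher in siTDP43 than in WT cells. Of the 49 tested, 33 rose and 9 fell, where 38.6% of all 14036 genes tested rose and 40.6% fell, and the median log2 fold change was 0.53 for the members against -0.05 for all genes. In bulk RNA a change in the RNA per cell and a change in the make-up of the culture cannot be told apart. The share of all counts that fell on the 51 genes was 0.649% ± 0.00646 in the WT inputs and 0.988% ± 0.00423 in the siTDP43 inputs (SD, n = 3 each).

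All 7 Y complex genes among the members, which make the outer rings, rose in siTDP43 inputs, with a median log2 change of 1.27. All 7 did so under every alternative scaling, filter and fit of the full set of libraries (medians 0.98 to 1.28). Of the Y complex genes outside the members, SEC13 rose (log2 0.37 ± 0.04) and AHCTF1 fell (log2 -1.47 ± 0.12). NUP43 was at 22.5, 21.9 and 23.1 CPM in WT and 80.98, 85.4 and 84.2 CPM in siTDP43 inputs (log2 1.90 ± 0.06, adjusted p = 7.44e-23). NUP85 (log2 1.65 ± 0.05) and NUP160 (log2 1.55 ± 0.05) rose about as much, and the smallest rise was that of NUP37 (log2 0.40 ± 0.04), whose libraries of the 2 groups still did not overlap. In the inner ring 4 of 5 genes rose, led by NUP205 at log2 1.20 ± 0.04, and NUP155 did not pass the test (log2 0.08 ± 0.06). All 3 channel genes rose: NUP98 by log2 1.05 ± 0.06, NUP54 by 0.64 ± 0.05 and NUP62, whose exons overlap those of ATF5 and IL4I1, by 0.26 ± 0.06.

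Among the members, falls were found at the periphery of the pore and in its membrane part. NUP153, a basket protein that docks import complexes, was at 44.1, 42.9 and 46.7 CPM in the WT and 17.7, 13.9 and 16.03 CPM in the siTDP43 inputs, with no overlap, and fell by 1.48 on the log2 scale (SE 0.08, adjusted p = 8.38e-17). RANBP2, the SUMO ligase of the cytoplasmic filaments, was at 30.1, 37.2 and 30.5 CPM in WT and 14.7, 16.9 and 14.5 CPM in siTDP43 inputs (log2 -1.09 ± 0.09, adjusted p = 3.26e-12). Reads of RANBP2 can be split with its near copies of the RGPD family, so its level is uncertain. Both tested membrane members also fell, POM121 (log2 -0.90 ± 0.12) and NUP210 (log2 -0.49 ± 0.08, but -0.11 and no call with the GC trend removed). POM121 shares sequence with POM121C, which fell too (log2 -0.71 ± 0.13). The membrane gene NDC1, in the table as TMEM48 and not counted as a member, rose (log2 1.10 ± 0.05). On the cytoplasmic side NUP214 fell slightly (log2 -0.24 ± 0.10, a call lost with the GC trend removed, at -0.18, and in 6 other alternatives) and NUP88 rose (log2 1.14 ± 0.04, with exons shared with RPAIN on the other strand). TPR, the scaffold of the basket, gave log2 0.15 ± 0.06 with an adjusted p of 0.0163, a call that did not hold under several alternatives and turned to log2 -0.15 once the trend with GC content was taken out.

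Among the import receptors, the importin alphas, which bind the classical import signal, diverged. KPNA6 gave the largest rise of all members, from 38.1, 36.9 and 38.6 CPM in WT to 158, 149 and 145 CPM in siTDP43 inputs (log2 2.00 ± 0.05, adjusted p = 4.35e-25), while KPNA4 gave the largest fall, from 42.5, 42.4 and 46.3 CPM to 15.1, 15.3 and 15.03 CPM (log2 -1.53 ± 0.08, adjusted p = 6.78e-18). The libraries of the 2 genotypes were far apart in both genes. KPNA1, KPNA2 and KPNA5 rose by log2 1.005, 1.16 and 1.08 in that order, and KPNA3 did not pass (log2 0.14 ± 0.07). Of the 11 receptors of the importin beta family 6 rose and 2 fell. IPO11 went from 35.6, 30.9 and 33.7 CPM to 134, 126 and 127 CPM (log2 1.96 ± 0.06), and KPNB1, the importin beta that carries importin alpha with its cargo, fell from 154, 144 and 148 CPM to 84.3, 80.9 and 80.2 CPM (log2 -0.85 ± 0.05, adjusted p = 7.59e-17). IPO13 fell as well (log2 -1.18 ± 0.15).

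Of the 6 exportins, 4 rose and XPO6, the exporter of actin, fell from 35.7, 38.1 and 38.7 CPM in WT to 16.7, 14.3 and 14.6 CPM in siTDP43 inputs (log2 -1.29 ± 0.08, adjusted p = 2.79e-15). CSE1L rose from 268, 268 and 275 CPM to 538, 548 and 553 CPM (log2 1.02 ± 0.04), and XPO1, the main exporter of proteins with a leucine-rich signal, rose less, from 124, 129 and 127 to 164, 153 and 173 CPM (log2 0.37 ± 0.05, adjusted p = 1.04e-08), a value that came down to 0.07 with the GC trend removed. All 3 Ran cycle genes among the members rose, whereas RANBP1 and NUTF2, Ran cycle genes outside the members, fell (log2 -1.09 ± 0.04 and -0.76 ± 0.04). RAN was at 1749, 1759 and 1766 CPM and 2511, 2556 and 2721 CPM (log2 0.57 ± 0.03), RANGAP1 at 93.4, 89.5 and 85.7 and 138, 113 and 109.6 CPM (log2 0.44 ± 0.06), and RCC1, whose exons overlap the host gene SNHG3 on the same strand, at 293, 284 and 289 and 612, 567 and 554 CPM (log2 1.01 ± 0.04). None of the 3 overlapped between WT and siTDP43 inputs.

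**Figure D1:**
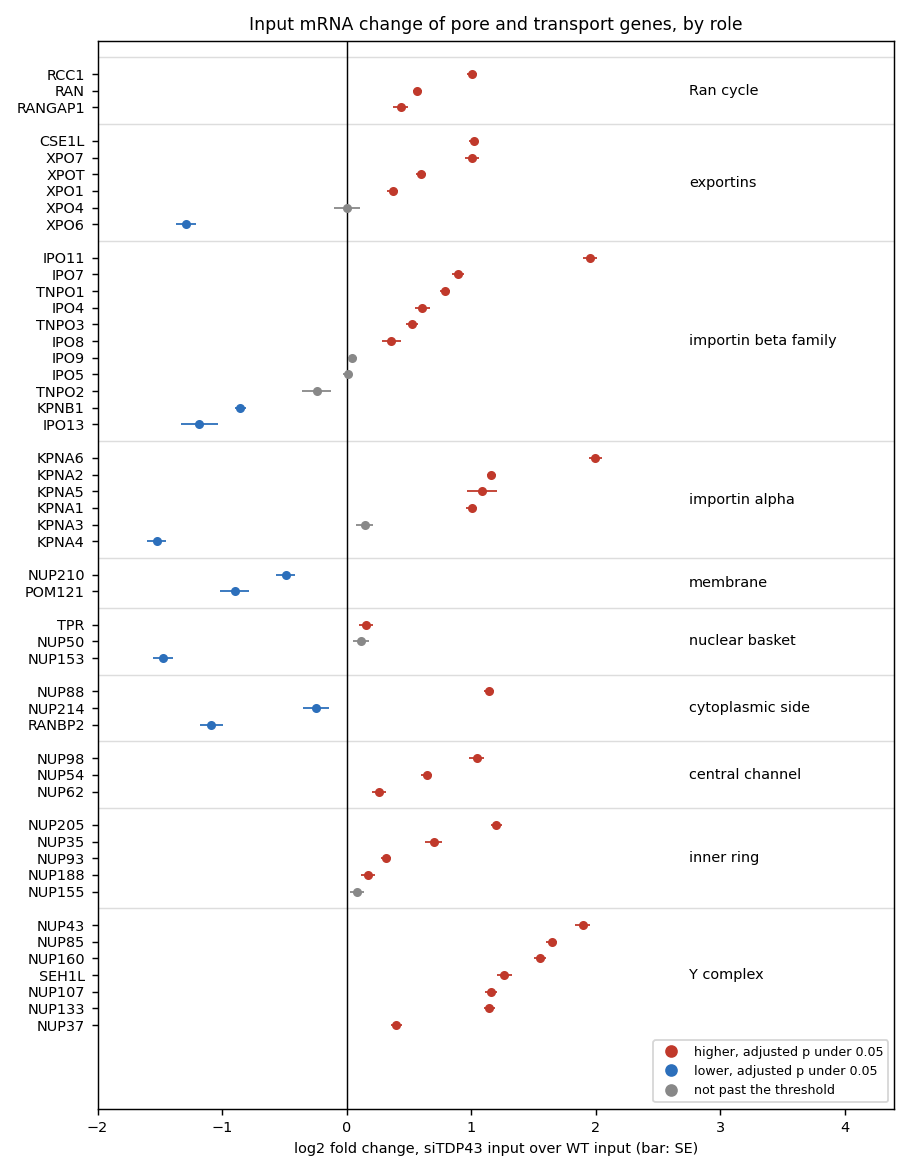
Log2 fold change of siTDP43 input over WT input for the 49 tested genes (x axis; bars are the SE of the fit), grouped by role, with red for a rise, blue for a fall and grey for genes that did not pass. All 7 Y complex genes lie right of 0, from 0.40 to 1.90, whereas NUP153, RANBP2, POM121, KPNB1, KPNA4, IPO13 and XPO6 lie left of it.

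In WT cells the pull-down favoured few of these mRNAs. Over input, 11 members were higher and 15 lower in the IP (all genes: 30.2% higher and 27.3% lower), with a median log2 change of -0.46 against 0.01 for all 14751 genes tested. Over IgG, 5 were higher and 6 lower (all genes: 35.2% higher and 17.8% lower), with a median of 0.02 against 0.29. Both control comparisons share the IP libraries. The study calls a transcript ac4C(+) when the IP exceeds both controls, and with the test used here 3 of 49 members, KPNB1, POM121 and TPR, met this, where 15.6% of all genes did.

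TPR gave the largest enrichment over input. It was at 54.02, 53.95 and 56.9 CPM in the WT inputs, 560.5, 617 and 629 CPM in the IP and 169 and 186 CPM in the IgG libraries, so that the IP stood far above both controls and the IgG control itself stood above the input. The log2 fold change was 3.46 ± 0.06 over input (adjusted p = 4.65e-24) and 1.74 ± 0.07 over IgG (adjusted p = 7.19e-17). TPR overlaps PRG4 on the opposite strand, and whether the counting used strand is not given in the sources used here. KPNB1 was at 882, 925 and 930.3 CPM in the WT IP and 367 and 411 CPM in the WT IgG libraries, against the input values above (log2 2.63 ± 0.05 over input and 1.21 ± 0.06 over IgG, adjusted p = 6.22e-15). POM121 was at 13.95, 13.8 and 12.5 CPM in the WT inputs, 61.03, 54.7 and 52.3 CPM in the IP and 18.7 and 20.3 CPM in the IgG libraries, with no overlap between the IP and either control (log2 2.07 ± 0.09 over input and 1.504 ± 0.12 over IgG, adjusted p = 3.299e-11). With the GC trend taken out, KPNB1, POM121 and IPO4 dropped under a fold of 2 over IgG (log2 0.85, 0.69 and 0.88) and TPR alone of the members was ac4C(+) in WT.

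Several transcripts passed against input but not against IgG. TNPO2, a transportin, was at 12.4, 11.4 and 12.3 CPM in the WT inputs and 90.4, 97.9 and 93.5 CPM in the IP, but at 68.4 and 65.4 CPM in the IgG libraries (log2 2.97 ± 0.07 over input, 0.47 ± 0.08 over IgG). RANGAP1 was at 375, 317 and 320.1 CPM in the IP and 1038 and 974 CPM in the IgG libraries, so it rose over input (log2 1.92 ± 0.06) and fell against IgG (log2 -1.60 ± 0.06, adjusted p = 2.701e-16). Its exons are 60.4% GC, the highest share among the members. IPO4, in contrast, passed over IgG only, with 41.7, 34.97 and 35.9 CPM in the IP and 12.99 and 8.02 CPM in IgG (log2 1.81 ± 0.15) against log2 -0.50 ± 0.10 over input. IPO4 overlaps REC8 on the opposite strand.

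The largest losses in the WT IP were those of NUP37, NUP155 and NUP54. NUP37 was at 108, 109 and 106 CPM in the inputs and 17.7, 15.01 and 13.3 CPM in the IP (log2 -2.80 ± 0.09, adjusted p = 1.002e-18), NUP155 at 74.98, 74.4 and 81.4 and 13.9, 12.6 and 13.1 CPM (log2 -2.53 ± 0.08), and NUP54 at 100.2, 95.4 and 98.4 and 17.7, 17.9 and 17.9 CPM (log2 -2.45 ± 0.09). Of the 7 Y complex members 5 were lower than input and NUP43 was higher (log2 1.48 ± 0.07). Against IgG the largest falls were those of CSE1L, at 68.8, 72.95 and 70.7 CPM in the IP and 235 and 215 CPM in IgG (log2 -1.69 ± 0.06), NUP155 (log2 -1.63 ± 0.10) and RANGAP1. RAN fell over input (log2 -1.55 ± 0.04) and stayed under the fold threshold over IgG (log2 0.25 ± 0.05), RCC1 gave log2 -0.92 ± 0.05 and -0.33 ± 0.06, and XPO1 gave 0.17 ± 0.05 and -0.22 ± 0.06, none of the last 4 values passing the fold threshold.

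The isotype control itself did not sample these mRNAs evenly. Of the members in WT cells, 8 passed as higher and 16 as lower in the isotype control against input (all genes: 24.4% and 36.6%), with a median log2 change of -0.37 against -0.39 for all genes. With the GC trend removed this turned to 16 higher and 9 lower, and the median to 0.26 against 0.02. RANGAP1 was the highest of them (log2 3.52 ± 0.07), followed by TNPO2 (log2 2.50 ± 0.09) and NUP43, at 108 and 101 CPM in IgG (log2 2.24 ± 0.08). NUP35 was at 36.9, 33.5 and 31.1 CPM in the inputs and 6.21 and 3.91 CPM in IgG (log2 -2.71 ± 0.19), and KPNA2 at 462, 493 and 494 CPM and 72.7 and 75.001 CPM (log2 -2.68 ± 0.07), with IPO4 next (log2 -2.31 ± 0.14). Among the core genes KPNB1 was higher in IgG (log2 1.42 ± 0.06), RAN was lower (log2 -1.80 ± 0.05), and RCC1 (log2 -0.59 ± 0.06) and XPO1 (log2 0.38 ± 0.06) stayed within the fold threshold.

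**Figure D2:**
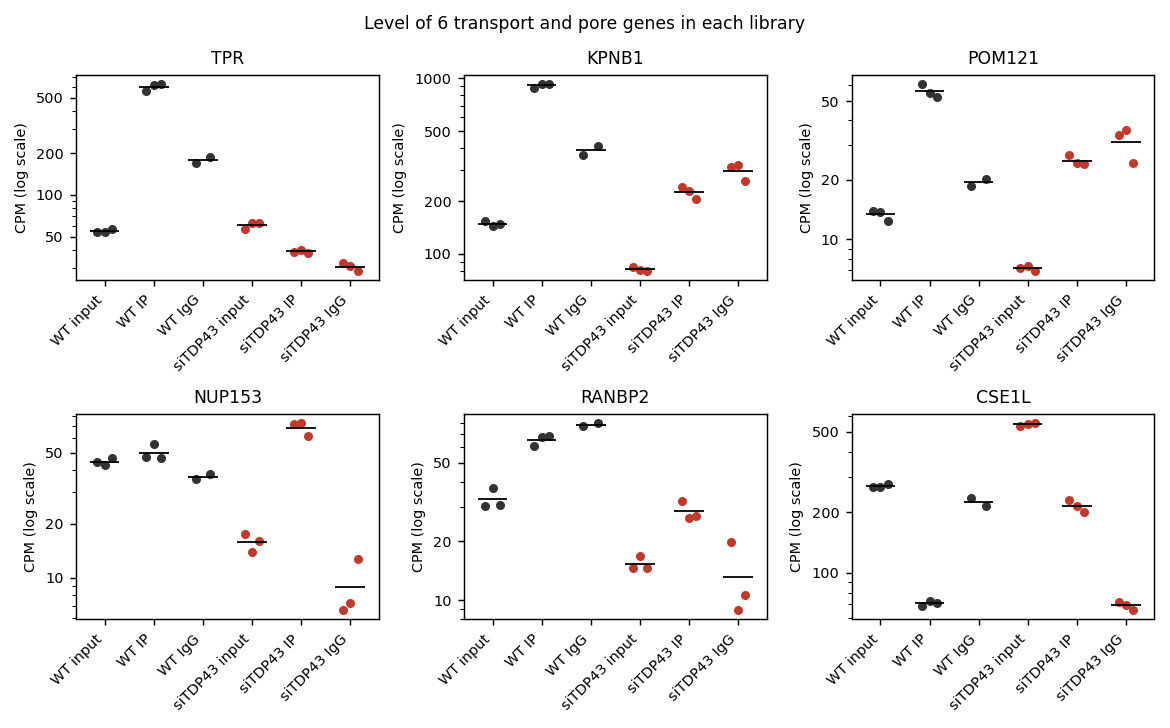
Level in CPM (y axis, log scale) of TPR, KPNB1, POM121, NUP153, RANBP2 and CSE1L in each of the 17 libraries by group, with a horizontal line at the group mean. TPR stands at 560.5 to 629.5 CPM in the WT IP and at 38.2 to 40.2 CPM in the siTDP43 IP, whereas NUP153 is highest in the siTDP43 IP.

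In siTDP43 cells the ac4C(+) members were others. Over input, 9 members were higher and 17 lower in the IP (all genes: 26.8% and 25.4%), with a median log2 change of -0.72 against -0.09 for all 12746 genes tested. Over IgG, 12 were higher and 1 lower (all genes: 34% and 15%), with a median of 0.29 against 0.33, the same with XPO4 held at its bound below. NUP153 and RANBP2 passed both, 2 of 49, where 10.3% of all genes did. The median over IgG turned to -0.34 with the GC trend removed, against -0.21 for all genes, with 4 members higher and 5 lower.

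NUP153 was at 72.1, 73.02 and 61.7 CPM in the siTDP43 IP and 6.61, 7.28 and 12.8 CPM in the siTDP43 IgG libraries, against 17.7, 13.9 and 16.03 CPM in the input, so that every IP library lay above every control library. The log2 fold change was 2.27 ± 0.14 over input (adjusted p = 3.02e-12) and 2.87 ± 0.20 over IgG (adjusted p = 9.23e-11), and the gene was ac4C(+) in siTDP43 cells under each alternative tried. RANBP2 was at 32.1, 26.3 and 26.9 CPM in the IP and 19.8, 8.902 and 10.7 CPM in IgG, and the IgG libraries were spread widely. Its log2 values of 1.05 ± 0.18 over input and 1.04 ± 0.23 over IgG lie just above the fold threshold, and the call was lost without IP replicate 1 (log2 0.95 over IgG), IgG replicate 2 (0.84) or IgG replicate 3 (0.89), as well as under DESeq2 and its size factors (0.97 over input), total counts (0.71), the fit of all libraries (0.90), a mean of at least 50 counts (0.99 over IgG) and the GC trend removed (0.13 over IgG).

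KPNB1 and POM121 were still above input in the siTDP43 IP, but not above IgG. KPNB1 was at 240.1, 229 and 205 CPM in the IP and 312, 319 and 260.4 CPM in IgG (log2 1.61 ± 0.08 over input, -0.47 ± 0.08 over IgG), so the IP libraries all lay under the IgG libraries. POM121 was at 26.6, 24.3 and 23.9 CPM in the IP, 7.19, 7.33 and 6.95 CPM in the input and 33.8, 35.6 and 24.2 CPM in IgG (log2 1.96 ± 0.17 and -0.39 ± 0.18), with overlap between IP and IgG. TPR, at 39.2, 40.2 and 38.2 CPM in the IP and 32.3, 30.8 and 28.5 CPM in IgG, was under its input level of 57.2, 62.8 and 62.8 CPM (log2 -0.48 ± 0.11) and near IgG (log2 0.29 ± 0.14), and neither value passed.

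**Figure D3:**
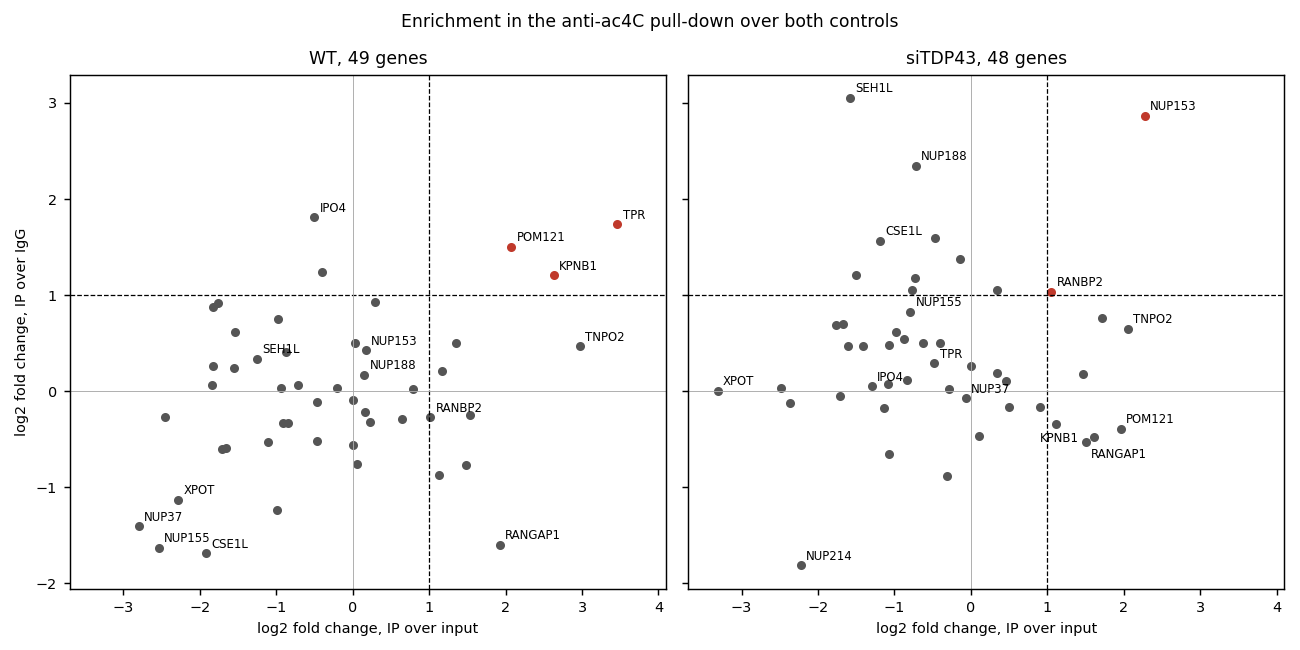
Log2 fold change of the IP over input (x axis) and over IgG (y axis) in WT cells for 49 genes and in siTDP43 cells for 48, XPO4 being left out where its IgG counts are 0, with dashed lines at a fold of 2 and ac4C(+) genes in red. KPNB1, POM121 and TPR lie in the upper right corner in WT, and NUP153 and RANBP2 in siTDP43.

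TNPO2 again passed over input (log2 2.05 ± 0.21) and not over IgG (log2 0.65 ± 0.24). The largest falls against input were those of XPOT, the tRNA exporter, at 336, 326 and 322 CPM in the input and 27.8, 31.2 and 30.1 CPM in the IP (log2 -3.31 ± 0.11), IPO11 (log2 -2.48 ± 0.14) and NUP160 (log2 -2.36 ± 0.12). Against IgG, XPO4 had 0 counts in all 3 siTDP43 IgG libraries and 6.54, 6.79 and 9.59 CPM in the IP, which makes it at least 6.77-fold higher in the IP, taking 3 counts in each IgG library as the floor. SEH1L was at 24.8, 27.9 and 29.6 CPM in the IP and 4.41, 2.83 and 2.13 CPM in IgG (log2 3.05 ± 0.24), and NUP214 was the 1 member that fell, with 3.86, 1.22 and 1.49 CPM in the IP and 9.55, 5.66 and 7.83 CPM in IgG (log2 -1.81 ± 0.40). Of the core genes, RANGAP1 passed over input (log2 1.504 ± 0.09, but 0.91 and no call with the GC trend removed) with log2 -0.53 ± 0.09 over IgG, and RCC1 fell over input (log2 -1.68 ± 0.07) with 0.70 ± 0.08 over IgG. RAN gave log2 -0.63 ± 0.05 and 0.50 ± 0.06, and XPO1 0.35 ± 0.08 and 0.19 ± 0.08, all within the fold threshold.

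These genes took a smaller share of the siTDP43 IgG libraries than of the inputs. Against input, 7 members were higher and 24 lower (all genes: 24.7% and 41%), and the median log2 change was -0.96 against -0.58 for all genes. With the GC trend removed the medians turned to 0.12 for the members and 0.02 for all genes. The members took 0.344% ± 0.000678 of the counts in siTDP43 IgG, 0.499% ± 0.00947 in siTDP43 IP, 0.556% ± 0.00548 in WT IgG and 0.596% ± 0.00324 in WT IP (SD, n = 3, and n = 2 for WT IgG). POM121 (log2 2.35 ± 0.19), KPNB1 (log2 2.09 ± 0.08) and RANGAP1 (log2 2.03 ± 0.09) were the highest. SEH1L (log2 -4.63 ± 0.22) and XPOT (log2 -3.32 ± 0.13) fell, and XPO4 was at least 13.3-fold lower than input. RCC1 (log2 -2.38 ± 0.08) and RAN (log2 -1.13 ± 0.06, but -0.26 and no call with the GC trend removed) fell as well, and XPO1 did not pass (log2 0.15 ± 0.08).

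The change of enrichment between the genotypes was tested directly, as the difference of the log2 ratios in a fit of the 17 libraries. Over input, 14 members gained and 23 lost enrichment in siTDP43 cells (all genes: 31.5% and 36.3% of 15165), with a median of -0.23 against -0.19 for all genes. Over IgG, 29 gained and 9 lost (all genes: 34.9% and 25.9%), with a median of 0.52 against 0.24. With the GC trend removed 26 gained and 13 lost over IgG, and the median of 0.31 lay below the 0.43 of all genes. The IP libraries are the same in the changes over input and over IgG, so the 2 sets of values are not independent.

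TPR lost the most over input (log2 -4.09 ± 0.10, adjusted p = 9.603e-29) and lost over IgG as well (log2 -1.40 ± 0.14, adjusted p = 3.51e-11). NUP214 (log2 -2.99 ± 0.29) and KPNA6 (log2 -1.56 ± 0.10) followed over input, where KPNA6 was at 80.8, 81.4 and 85.2 CPM in the WT IP and 111, 110.4 and 111 CPM in the siTDP43 IP while its input had risen. Over IgG the largest losses were those of POM121 (log2 -1.84 ± 0.21), IPO4 (log2 -1.70 ± 0.27, and -0.83 with the GC trend removed) and KPNB1 (log2 -1.63 ± 0.11). KPNB1 also lost over input (log2 -1.16 ± 0.10), whereas POM121 did not pass there (log2 -0.26 ± 0.18). All 3 WT ac4C(+) members lost enrichment over IgG, but they were picked on the same WT IP and IgG libraries, so this is a description.

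NUP37 gained the most over input, with 17.7, 15.01 and 13.3 CPM in the WT IP and 129, 130.2 and 103 CPM in the siTDP43 IP (log2 2.59 ± 0.13, adjusted p = 4.396e-19), and also gained over IgG (log2 1.39 ± 0.16). Its siTDP43 means were 121 CPM in the IP, 121.3 in IgG and 141 in the input, so the IP stood above neither control. NUP153 (log2 1.95 ± 0.16 over input and 2.50 ± 0.24 over IgG) and NUP155 (log2 1.60 ± 0.15 and 2.51 ± 0.19) gained over both. NUP155 was still under its input in siTDP43 cells, with means of 42.2 CPM in the IP, 81.3 in the input and 22.8 in IgG. The input level of NUP153 fell, as above, while its IP stood at 47.3, 55.8 and 46.7 CPM in WT, below the siTDP43 IP. RANBP2 gained over IgG (log2 1.37 ± 0.24, and 0.56 with the GC trend removed) and did not pass over input (log2 -0.11 ± 0.18). CSE1L gained 3.31 over IgG (SE 0.11, adjusted p = 1.43e-24), its siTDP43 libraries being at 230.0, 214 and 202 CPM in the IP and 71.96, 69.6 and 65.5 CPM in IgG, and SEH1L gained 2.77 ± 0.30. XPO4 also gained over IgG in the fit, with no finite size since its siTDP43 IgG counts are 0.

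By role among the members, all 6 exportins, all 7 Y complex genes and all 3 Ran cycle genes gained over IgG. These came to 5, 5 and 2 with DESeq2 size factors and to 5, 4 and 3 with the GC trend removed. Among these genes the calls of NUP85 (log2 0.28), NUP160 (0.52), NUP107 (0.68) and the exportin XPO7 (0.52) were also lost when certain single libraries were left out. That of NUP85 was lost under DESeq2, with no filter and with a mean of at least 50 counts too. Outside the members, SEC13 of the Y complex gained (log2 0.38 ± 0.10) and AHCTF1 did not pass (log2 -0.48 ± 0.31). RANBP1 and NUTF2 of the Ran cycle lost (log2 -1.25 ± 0.11 and -1.45 ± 0.11). Over input the importin beta family split into 4 that gained and 7 that lost, and with total counts into 1 and 7. XPO1 is among the exportins whose gain depends on the processing: log2 0.46 ± 0.11 over IgG turned to -0.30 with the GC trend removed, and over input it did not pass (log2 0.03 ± 0.09). RAN gained over input (log2 0.77 ± 0.07) and slightly over IgG (log2 0.31 ± 0.08), the latter lost under DESeq2 (log2 0.08). RANGAP1 lost over input (log2 -0.56 ± 0.11, but -0.0617 and no call with the GC trend removed) and gained over IgG (log2 1.12 ± 0.12), and so did RCC1 (log2 -0.91 ± 0.09 and 1.08 ± 0.10).

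**Figure D4:**
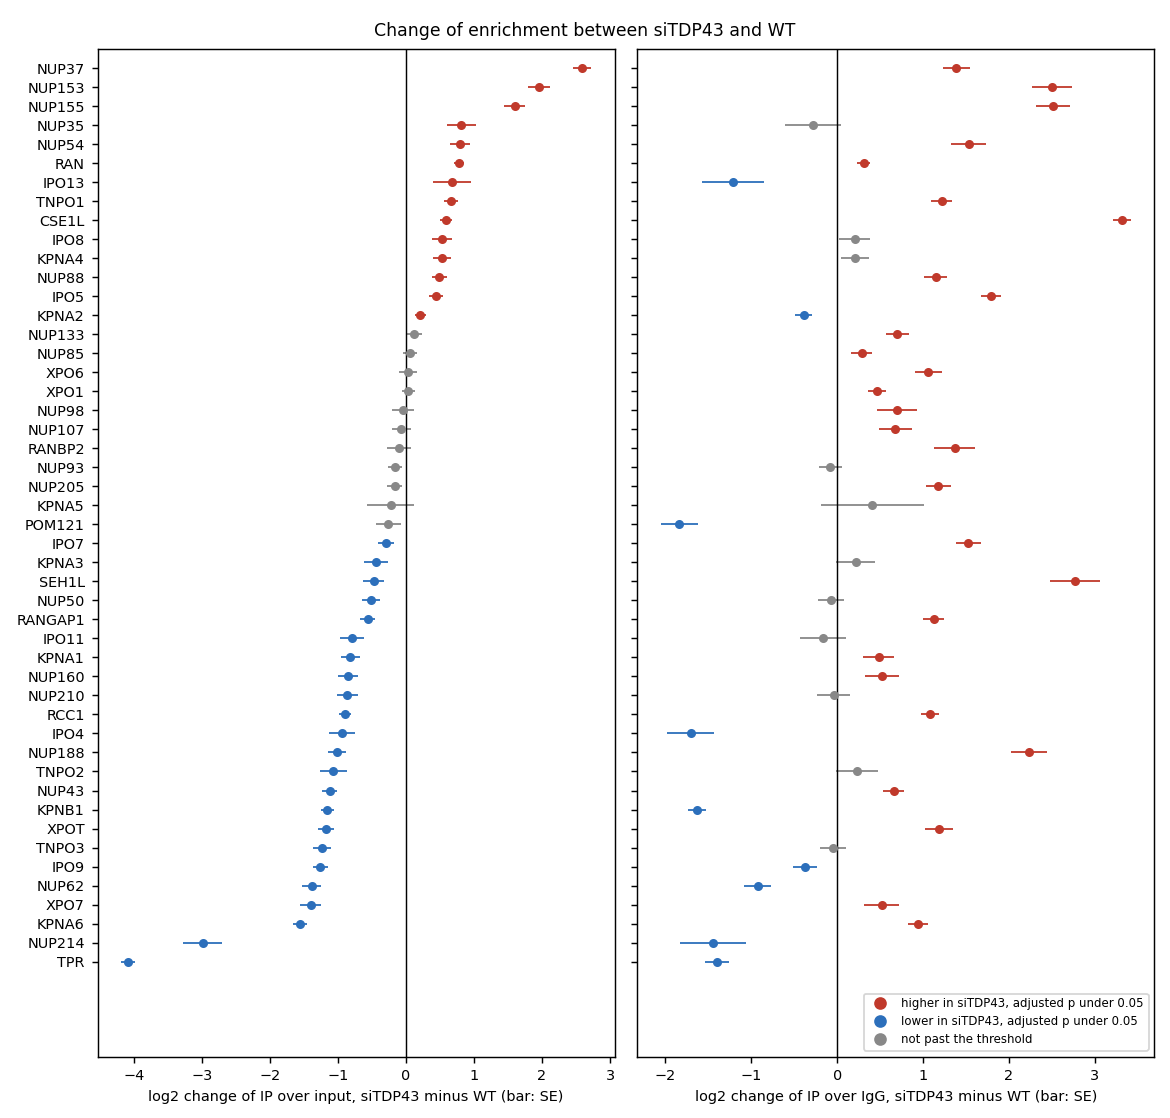
Change of the log2 enrichment, siTDP43 minus WT, over input (left) and over IgG (right) for 48 genes (XPO4 is left out), ordered by the change over input, with bars for the SE of the fit. TPR is lowest on the left at -4.09, and most genes lie right of 0 in the right panel while the left panel is split.

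The exons of these genes are long and poor in GC. The median exon length was 4573 bases against 3047 for all genes tested in WT, and the median GC content 43.4% against 49.7%. Across the 49 genes, Spearman's rho between GC content and the log2 change was 0.43 for WT IP over input and 0.13 for WT IP over IgG, against 0.36 and 0.19 over all genes. In siTDP43 cells it was 0.16 over input and -0.44 over IgG, against 0.27 and -0.13 over all genes. Genes are not independent replicates and the values of 1 comparison share their libraries, so these are descriptions only. Of the 12 members over 50% GC, 6 were higher and 0 lower than input in the WT IP, where 41.7% and 16.1% of all genes over 50% GC were. Of the 37 others 5 were higher and 15 lower, where 19.2% and 38% of all other genes were. The part of GC content in the results was not tested beyond the refit with the GC trend removed.

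By the letters of the 2 motifs, the 9 member genes with UCCCAGCU gave 4 higher and 1 lower over WT input, where 38.9% and 17% of all genes with this sequence were higher and lower. Over WT IgG they gave 0 higher and 1 lower (all genes with it: 35.2% and 17.7%), and 0 gained and 7 lost enrichment over input in siTDP43 cells (all genes with it: 21.6% and 47%). The change over IgG went the other way, with 6 gained and 2 lost (all genes with it: 34.6% and 27.5%). Of the 19 member genes with UGUGCG, 6 were higher and 6 lower than input in the siTDP43 IP (all genes with it: 30.5% and 23.5%), and 7 were higher and 0 lower than IgG (all genes with it: 35.8% and 16.5%). Between the genotypes 5 of them gained and 9 lost over input (all genes with it: 24.8% and 42.5%). Over IgG 12 gained and 5 lost (all genes with it: 33.1% and 28%). These counts were not tested.

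Other genes of the pathway, 25 in all, of which 24 were in the table, were counted in the same way. In the inputs 13 rose and 8 fell (all genes: 38.6% and 40.6%), with a median log2 change of 0.28. In WT cells 4 were higher and 9 lower than input (all genes: 30.2% and 27.3%) and 5 higher and 4 lower than IgG (all genes: 35.2% and 17.8%). In siTDP43 cells 4 were higher and 7 lower than input (all genes: 26.8% and 25.4%) and 1 higher and 5 lower than IgG (all genes: 34% and 15%). Between the genotypes 8 gained and 8 lost over input (all genes: 31.5% and 36.3%), with a median of -0.08. Over IgG 8 gained and 8 lost (all genes: 34.9% and 25.9%), with a median of -0.28 against 0.52 for the members. POM121C, the near copy of POM121, was the only one of them that was ac4C(+), and only in WT (log2 2.63 ± 0.09 over input and 1.46 ± 0.11 over IgG). In siTDP43 cells it gave log2 1.97 ± 0.20 over input and 0.99 ± 0.25 over IgG, just short of the fold threshold, and its change over IgG between the genotypes did not pass (log2 -0.41 ± 0.26, adjusted p = 0.178).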

How the data were processed

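Poly(A) RNA of HEK293T cells was measured in 17 acRIP-seq libraries, grouped by sample title. The authors trimmed reads with Trim Galore 0.6.7, aligned them to hg19 with STAR 2.7.10a and deposited raw counts per gene of uniquely mapped reads from featureCounts 2.0.2. The labels name mm10, which the methods use for mouse samples. Annotation release, strand and read-pair setting are not given in the sources used here. From 81.3% to 95.9% of low counts were even, so mates seem to be counted singly. The methods add in vitro transcribed β-globin RNA with ac4C before the pull-down, but no value of it was used here, and no molecular identifiers are named, so enrichment is relative to the library and errors cover counting and the spread between libraries.

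The test was edgeR 4.0.16 in R 4.3.3 (TMM, filterByExpr with a minimum count of 10, two-sided quasi-likelihood test, Benjamini-Hochberg): 6 libraries for inputs, 8 for WT, 9 for siTDP43 and 17 for changes of enrichment. Groups with at most 3 counts in every library were taken as at the floor. Named were, in each comparison, the 3 largest rises and falls among called members that averaged 100 counts or more without overlap of the groups, every ac4C(+) member, and RAN, RANGAP1, RCC1, KPNB1 and XPO1; other members stand as examples of their role. The members and lists were chosen with earlier results of these data known. Alternatives were DESeq2 1.42.0, its size factors, total counts, other filters, halved counts, a replicate block, 1 fit of all libraries, each library left out and, added after seeing the data, removal of each library's trend with exon GC (lowess over 30% of genes). Of the sites of UCCCAGCU in members higher in the WT IP, 2 are not reported here. The scripts were tested on simulated data. Replicates were not duplicates (chi-square per degree of freedom 3.26 to 9.43).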

Additional observations from a re-analysis of the deposited data

Results flagged for a closer look

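In 15 cases the enrichment of a member went in opposite directions in WT and siTDP43 cells, with an adjusted p under 0.05 in each genotype and for the difference itself (edgeR's quasi-likelihood test, all 17 libraries for the difference). Their causes were not tested, and the depth of the siTDP43 IgG libraries (3013989 to 3436811 counts) bears on every value over IgG.

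Over input, the difference of siTDP43 minus WT was log2 -4.09 for TPR (3.46 in WT and -0.48 in siTDP43), -2.99 for NUP214 (0.65 and -2.23), -1.56 for KPNA6 (1.13 and -0.28) and 0.66 for TNPO1 (-0.47 and 0.34).

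Over IgG, the difference was log2 3.31 for CSE1L (-1.69 in WT and 1.57 in siTDP43), 2.51 for NUP155 (-1.63 and 0.83), 1.79 for IPO5 (-1.24 and 0.50) and 1.53 for NUP54 (-0.27 and 1.21). It was 1.37 for RANBP2 (-0.27 and 1.04), 1.15 for NUP88 (-0.60 and 0.49), 1.08 for RCC1 (-0.33 and 0.70), 1.06 for XPO6 (-0.25 and 0.76) and 0.46 for XPO1 (-0.22 and 0.19). The 2 that went down were KPNB1 at log2 -1.63 (1.21 and -0.47) and NUP62 at -0.93 (0.51 and -0.47), a difference that was -0.21 and not past the threshold with the GC trend removed. In that refit XPO1 was -0.20 over WT IgG and -0.70 over siTDP43 IgG, with a difference of -0.30, so its directions were no longer opposite. RANBP2 was 0.13 over siTDP43 IgG there and did not pass. The refit is given here for these genes only.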

How the results depend on the processing

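Of 1846 values of genes chosen by the naming rule and of TARDBP, 1781 kept their direction and their side of the threshold under alternatives. Of the others, 29 lost and 10 gained a call, and 26 changed sign, of which 3 were past the threshold after the change. The rule favours large changes in these same data, so this share does not describe all tested members. Of 319 counts of members, 299 stayed within 1.5 times. Over all alternatives run, the members' calls that were made in both directions were only those of TPR between inputs and XPO1 in its change over IgG, both turned with the GC trend removed. The causes of the changes were not tested.

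The ac4C(+) members in siTDP43 numbered 1 in place of 2 under DESeq2, its size factors, total counts, a mean of at least 50 counts, the fit of all libraries and the GC trend removed, and 1 to 2 when a library was left out. Without siTDP43 IgG replicate 3 they were NUP153 and TNPO2, with RANBP2 lost. With total counts, 8 members were higher over WT IgG, 3 were higher in siTDP43 IgG over input, and 8 gained over input in siTDP43 cells. With the GC trend removed, 14 fell between inputs, 1 was ac4C(+) in WT, 2 were higher over WT IgG, 16 were higher and 9 lower in WT IgG over input, 4 were higher and 5 lower over siTDP43 IgG, and 13 were higher and 12 lower in siTDP43 IgG over input. Total counts moved the median of all genes in siTDP43 IgG over input from -0.58 to -1.13, and the GC refit to 0.02, and a DESeq2 Wald fit moved the change over IgG from 0.24 to -0.13.

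RANBP2 in siTDP43 IgG over input went from 0.01 to -0.0473 under DESeq2, -0.0456 with its size factors, -0.54 with total counts, -0.0206 with no filter, -0.0115 with the replicate block, -0.21 in the fit of all libraries, 1.34 with the GC trend removed, and -0.43 to 0.20 when a library was left out. XPO1 there went from 0.15 to -0.397, -0.0763 and 1.45 (total counts, all libraries, GC), and its change over input from 0.03 to -0.0299 (DESeq2), -0.0286 (its size factors), -0.26 (total counts), -0.0385 (GC) and -0.0139 to 0.0692 when a library was left out, the lowest without siTDP43 input replicate 2. With the GC trend removed, TPR became -0.15 between inputs, -0.59 over siTDP43 IgG and 0.52 in siTDP43 IgG over input. RAN became -0.0784 over WT IgG and -0.16 over siTDP43 IgG, NUP153 0.41 and 0.50 in WT and siTDP43 IgG over input, XPO1 -0.70 over siTDP43 IgG and -0.30 in its change over IgG, and POM121 0.25 in its change over input.

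Same-numbered libraries did not deviate together (r from -0.02 to 0.03 over 40 pairs, none above 0.1), so there was no sign that the numbers pair them. Pairing is not excluded by this, since a shared source that varied little would also give a low r. With the replicate block 34 members rose and 10 fell between inputs and 13 gained over input in siTDP43 cells, and no call of a gene chosen by the naming rule changed. WT IgG rests on 2 libraries, and members under about 10 CPM there or in siTDP43 IgG rest on few reads.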
